A study of Mus musculus with 14 samples.

Results

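Ephrins and Eph receptors, the membrane-bound ligands and receptor tyrosine kinases of one contact signalling system, were examined in the liver transcriptome of mice on either of 2 diets. The members were 10 symbols, chosen from this gene family with the fold changes and p-values of the diet comparison in these libraries known: Efna1, Efna2, Efna3, Efna4, Efna5, Efnb1, Efnb2, Epha2, Ephb3 and Ephb4. They matched 11 of the 37681 identifiers in the count table, since Efna5 has 2, and 9 of these 11 were among the 17223 genes that passed the filter on low counts. Because the diet comparison was in view when the list was made, the members' diet differences are given as a description. No p for a member's diet difference is printed, and the counts of members past a threshold stand beside the share over all genes and support nothing. The study sequenced polyadenylated liver RNA from 14 mice, of which 7 received food high in fat and sucrose (HFHS) and 7 received food low in both (LFLS), each mouse giving 1 library. No transgene, deletion or drug is named for either group, and the sources used here do not give strain, sex, age or length of feeding. Sample titles start with 1 in replicates 1 to 4 of each diet and with 2 in replicates 5 to 7; the meaning of this title number is absent from the labels, and it is treated here as a batch.

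Ephrins act on neighbouring cells. Ephrin-A proteins are held in the membrane by a lipid anchor and bind mainly EphA receptors, while ephrin-B proteins span the membrane and bind mainly EphB receptors. Contact sends a forward signal through the receptor's kinase and a reverse signal into the ligand-bearing cell, and the pair is best known for cell repulsion, tissue boundaries and vessel patterning. The family takes its name from an erythropoietin-producing hepatocellular carcinoma line in which EphA1 was found, and in vessels ephrin-B2 marks arteries and EphB4 marks veins.

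Libraries held 18.2 to 52.8 M counts (M, mega). Levels are CPM, counts per M library counts scaled by the trimmed mean of M-values (TMM), and differences are log2 fold changes of HFHS over LFLS with a standard error (SE). Of 7 listed hepatocyte markers all 7 were matched and tested, and their summed level was 82338 to 132515 CPM in LFLS and 65654 to 109610 CPM in HFHS, so markers of the labelled tissue were abundant in all 14 libraries. Of 9 marker lists for liver cell types and tissues carried over at dissection, none held a gene past a Benjamini-Hochberg adjusted p of 0.05 between diets in either direction in the edgeR quasi-likelihood test. The summed exocrine pancreas markers still varied widely between libraries, from 14.8 CPM in HFHS 6 to 1598 CPM in LFLS 2. The lack of a call therefore does not show that carry-over was even. With the title number as a block, 2 of 7 hepatocyte markers passed and were lower in HFHS, beside 8.94% of all genes in either direction. The median summed hepatocyte marker level was 93085 CPM in LFLS and 98368 CPM in HFHS. In whole liver RNA, fewer cells of a type and less RNA per cell cannot be told apart.

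Per length, the ligand Efna1 was the most abundant member. Its level was 29.6 ± 8.38 CPM per kb of exon in LFLS and 18.9 ± 5.42 in HFHS (SD, n = 7 per diet, as for the next values), and it lay above Epha2 in 14 of 14 libraries. Epha2, the most abundant member receptor, stood at 12.4 ± 4.36 CPM per kb in LFLS and 10.6 ± 2.30 in HFHS. The ephrin-A class was therefore dominated by 1 ligand, with Efna1 making up 84.7% ± 4.52 of its summed level per length in LFLS and 84.0% ± 3.35 in HFHS. This sum holds only the first Efna5 identifier, as the second has no length here. Ephb4 followed at 4.88 ± 1.35 and 4.44 ± 0.918 CPM per kb in the same order of diets. Efnb1 came next at 4.03 ± 1.35 and 3.45 ± 0.523 CPM per kb. Ephb4 exceeded Efnb1 in 14 of 14 libraries, and Efnb1 exceeded the first Efna5 identifier in 13 of 14.

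With the first Efna5 identifier alone, the order of the ligands Efna5 and Efna3 differed between diets. The second Efna5 identifier, at a mean of 4.26 CPM in LFLS and 5.83 CPM in HFHS, has no length here and is left out. As reads may be split between the 2, the Efna5 levels and shares may be too low and the Efna3 shares too high. The order in LFLS is therefore not settled. In LFLS, Efna3 stood at 2.93 ± 1.07 CPM per kb and Efna5 at 2.02 ± 0.435, with Efna3 above Efna5 in 5 of 7 libraries. In HFHS, Efna3 stood at 0.699 ± 0.295 CPM per kb and Efna5 at 2.57 ± 0.357, with Efna3 above Efna5 in 0 of 7 libraries. As a share of the ephrin-A class per length, Efna3 made up 8.59% ± 3.51 in LFLS and 3.09% ± 0.880 in HFHS. The share of Efna5 was 6.31% ± 2.40 in LFLS and 12.2% ± 3.17 in HFHS. Efnb2 was lower, at 0.483 ± 0.123 and 0.592 ± 0.187 CPM per kb. Efna4, Efna2 and Ephb3 all lay below 0.1 CPM per kb on average in both diets, and their order varied from library to library, with Efna4 above Efna2 in 8 of 14.

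Efna3 encodes ephrin-A3, a lipid-anchored ligand, and showed the largest diet difference among the members that could be fitted. Its level in LFLS ran from 2.41 CPM through a median of 7.68 to 9.55 CPM. In HFHS it ran from 0.862 CPM through a median of 1.69 to 2.78 CPM. The groups overlapped through a single library, LFLS 6 at 2.41 CPM, while every other LFLS library lay at 5.20 CPM or more. Mean levels were 7.12 ± 2.60 CPM in LFLS and 1.70 ± 0.718 CPM in HFHS (SD, n = 7 each), so that the HFHS mean was 23.9% of the LFLS mean and the fitted log2 difference was -2.06 (SE 0.31).

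The Efna3 difference was present within both title numbers. Among libraries of title number 1, LFLS spanned 6.78 to 9.55 CPM and HFHS 1.69 to 2.78 CPM, with a log2 difference of -1.93 (SE 0.21). Among libraries of title number 2, LFLS spanned 2.41 to 8.89 CPM and HFHS 0.862 to 1.37 CPM, with a log2 difference of -2.37 (SE 0.47). The diets did not overlap within either number. The counts behind these levels were small, 60 to 524 per LFLS library and 18 to 86 per HFHS library. In the authors' deposited table, whose header does not name the groups, Efna3 had a ratio of group means of 0.22 and a log2 fold change of -2.18.

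**Figure D1:**
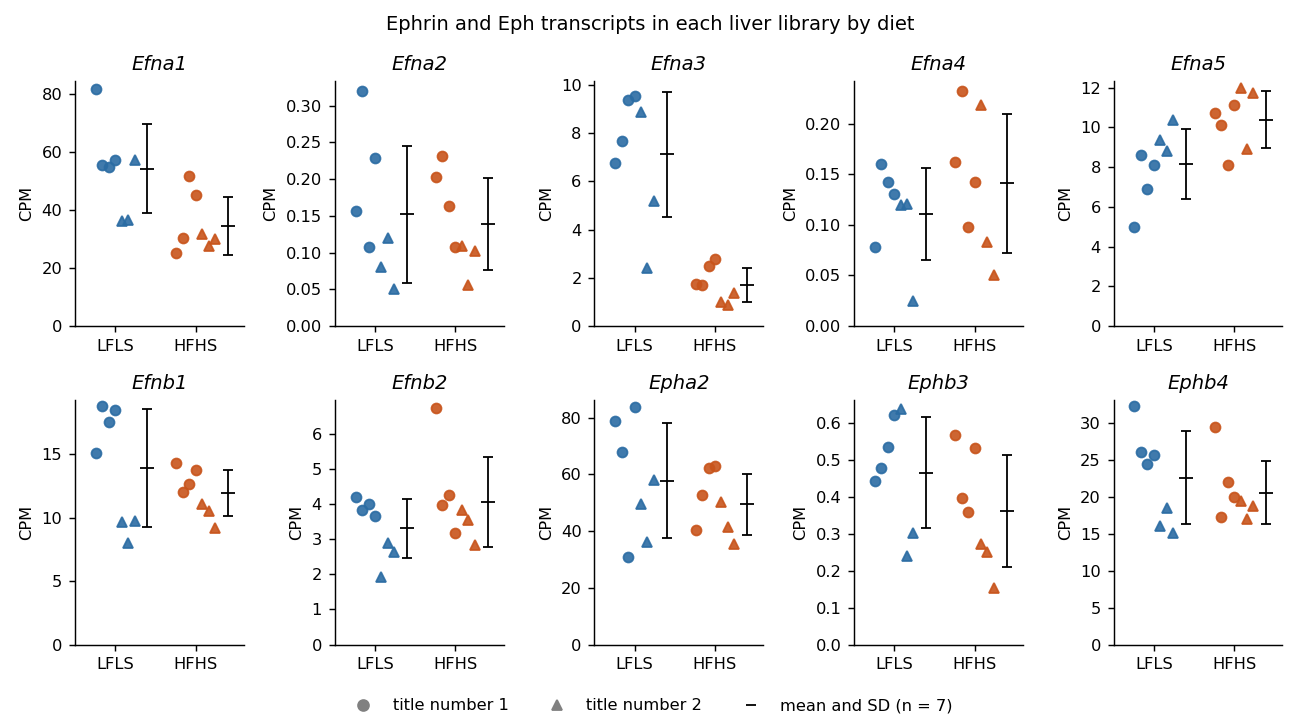
Level of each of the 10 members in CPM (vertical axes, each starting at 0) in LFLS (blue) and HFHS (orange), with 1 point per library, circles for title number 1 and triangles for title number 2, and the mean with SD beside each diet (n = 7). Efna3 in HFHS lies at 0.862 to 2.78 CPM against 2.41 to 9.55 CPM in LFLS. Efnb1 lies higher in title number 1 than in title number 2 without overlap in both diets. Efnb2 and Ephb4 do so within LFLS alone, and Efna3 and Ephb3 within HFHS alone. Efna5 within LFLS lies lower in number 1 without overlap.

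Efna3 shares its locus with an antisense gene, which bears on what its counts hold. In the GENCODE M21 annotation, Gm15998 lies inside Efna3 on chromosome 3 on the opposite strand, and 344 exon bases belong to both genes, 14.1% of the Efna3 exons and 18.7% of those of Gm15998. The labels do not say that strand was kept, so reads of 50 bases from these stretches cannot be assigned to one gene or the other. Of 2434 distinct 50-base words in Efna3 transcripts, 198 (8.13%) also occur in Gm15998, counted on both strands. The shared part lies mostly in coding sequence of the 5-exon Efna3 transcript: 149 of 290 bases of exon 2, all 66 bases of exon 3 and 129 of 1669 bases of exon 5. Exons 2 and 3 are shown 5′ to 3′ on the Efna3 strand because they hold most of the ambiguous sequence, with capitals for the bases that also lie in Gm15998 exons.
Efna3 exon 2: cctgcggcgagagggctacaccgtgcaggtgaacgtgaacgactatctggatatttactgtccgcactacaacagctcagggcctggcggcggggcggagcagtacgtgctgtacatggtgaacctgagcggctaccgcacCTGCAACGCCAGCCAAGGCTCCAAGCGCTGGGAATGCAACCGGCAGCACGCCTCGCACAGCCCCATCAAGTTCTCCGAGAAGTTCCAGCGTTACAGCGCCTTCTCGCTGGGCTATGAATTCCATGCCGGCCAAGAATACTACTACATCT
Efna3 exon 3: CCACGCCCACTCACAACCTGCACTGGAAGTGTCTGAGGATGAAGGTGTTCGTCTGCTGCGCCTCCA

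Gm15998 followed Efna3 library by library. Its counts were 36 to 340 per library in LFLS and 7 to 51 in HFHS, and its log2 difference was -2.18 (SE 0.33), given without a test because it was chosen after its values were seen. As a percentage of the Efna3 count, Gm15998 stood at 62.5% ± 3.69 in LFLS and 56.4% ± 11.8 in HFHS (SD, n = 7 each). These percentages ran from 58.9% to 69.5% in LFLS and from 38.9% to 74.2% in HFHS, so the diets overlapped. Of the distinct 50-base words of Gm15998, 11.0% also occur in Efna3, and how many reads came from each strand was not tested. Among the 14797 tested genes whose mean reached 1 CPM, Gm15998 was also the gene most like Efna3 after the means of each diet and title number were removed, at a Pearson r of 0.917 over 14 libraries; the pair shares library and sequence. The next genes were Rab36 at 0.900, Slc10a7 at 0.900, Tmed9 at 0.889 and Gimap9 at 0.887.

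**Figure D2:**
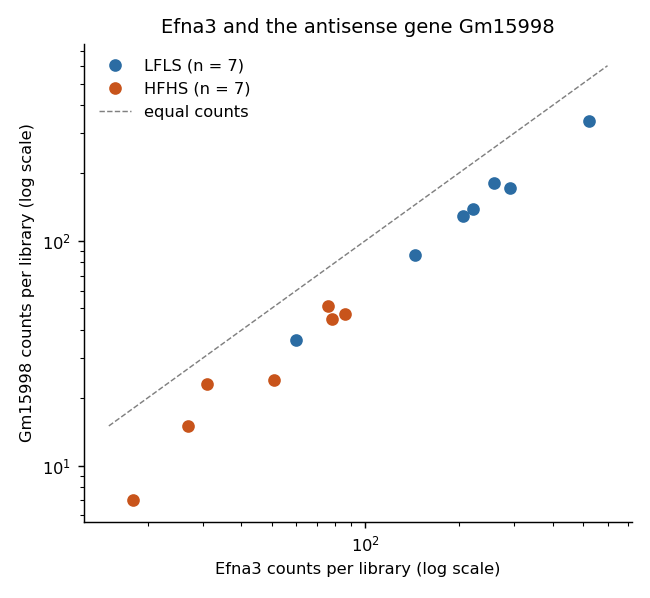
Counts of Gm15998 (vertical, log scale) against counts of Efna3 (horizontal, log scale), 1 point per library, blue for LFLS and orange for HFHS (n = 7 each), with a dashed line at equal counts. All 14 points lie below the line, and Gm15998 runs at 38.9% to 74.2% of the Efna3 count across the libraries.

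Efna3 lies between 2 other members on chromosome 3. Efna4, Efna3 and Efna1 are transcribed in one direction from the minus strand, with 10424 bases between Efna4 and Efna3 and 32756 bases between Efna3 and Efna1. Efna1 differed by less between diets than Efna3, and Efna4 was near the floor of the table in both diets, too low to show whether it differed. After removal of the means of each diet and title number, Efna3 and Efna1 gave a Pearson r of 0.22 over 14 libraries, with a permutation p of 0.605 and 0.673 after Benjamini-Hochberg adjustment over 6 pairs. Their Spearman rho was 0.34 with an adjusted permutation p of 0.365, and r was 0.15 without the 2 libraries farthest from the Efna1 median. Leaving out single libraries gave an r of 0.07 (without LFLS 6) to 0.55 (without LFLS 5), and removing diet means alone gave 0.51.

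**Figure D3:**
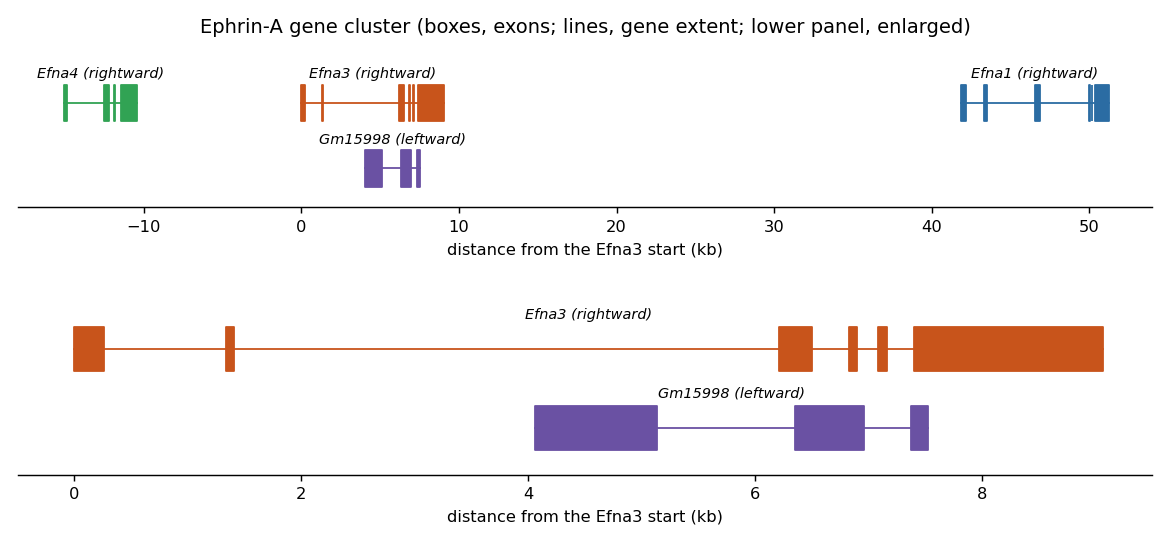
Map of the ephrin-A genes on chromosome 3, drawn to scale in kb from the Efna3 start along the direction of its transcription (upper panel) and enlarged around Efna3 (lower panel), with boxes for exons and lines for gene extent. Gm15998 runs leftward inside Efna3, and 344 bases of its exons lie under Efna3 exons.

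The promoter windows of the 2 ephrin-A genes with the most negative diet differences are printed here because the members share a cluster. Each window of 300 bases ends 50 bases past a transcript start (RefSeq, GRCm38.p6, minus strand), and 12 windows were found for the 10 members, with 2 each for Efna3 and Efna1, of which the first listed is printed. The motifs searched on both strands were the TATA box (letters TATAAA), the CCAAT box (letters CCAAT), the GC box (letters GGGCGG), the E-box (letters CACGTG) and a nuclear receptor half-site (letters AGGTCA). No matches overlap in these windows. Capitals mark matches. The first line is chr3:89322890-89323189 and the second is chr3:89280902-89281201.
Efna3: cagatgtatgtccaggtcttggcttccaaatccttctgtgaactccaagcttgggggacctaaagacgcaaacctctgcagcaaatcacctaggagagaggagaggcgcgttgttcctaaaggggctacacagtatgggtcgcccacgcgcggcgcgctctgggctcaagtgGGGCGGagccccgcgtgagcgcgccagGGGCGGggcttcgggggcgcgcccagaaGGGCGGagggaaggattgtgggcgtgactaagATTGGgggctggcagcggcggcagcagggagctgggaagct
Efna1: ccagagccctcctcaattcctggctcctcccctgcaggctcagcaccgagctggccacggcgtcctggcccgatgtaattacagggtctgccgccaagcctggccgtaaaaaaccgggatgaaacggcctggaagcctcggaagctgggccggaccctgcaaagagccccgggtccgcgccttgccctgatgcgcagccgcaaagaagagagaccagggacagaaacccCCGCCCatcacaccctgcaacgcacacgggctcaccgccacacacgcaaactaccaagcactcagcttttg

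The printed Efna3 window held GGGCGG 3 times and CCAAT 1 time, and the printed Efna1 window held GGGCGG 1 time. The second Efna3 window held GGGCGG 3 times and no CCAAT, and the second Efna1 window held GGGCGG 2 times and no CCAAT. Of all 32851 windows of 300 bases, 35.7% held GGGCGG and 37.4% held CCAAT. None of these 4 windows held TATAAA, present in 13.6% of windows, CACGTG, present in 7.15%, or AGGTCA, present in 16.3%. GC content was 64% in the printed Efna3 window and 63.7% in the printed Efna1 window, with 22 and 20 CpG dinucleotides. These matches describe the letters only.

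Efna1 encodes ephrin-A1, a ligand of EphA2 that was first described as a transcript induced by tumour necrosis factor in endothelium. LFLS levels of Efna1 ran from 36.0 CPM through a median of 55.4 to 81.6 CPM. In HFHS it ran from 25.2 CPM through a median of 30.2 to 51.7 CPM. The diets overlapped when pooled, because 2 LFLS libraries of title number 2 lay near 36 CPM and 2 HFHS libraries of title number 1 lay above 45 CPM. Within title number 1 the diets were apart, at 54.9 to 81.6 CPM in LFLS and 25.2 to 51.7 CPM in HFHS. Within title number 2 they were also apart, at 36.0 to 57.4 CPM and 27.7 to 31.7 CPM. The HFHS mean was 63.7% of the LFLS mean, and the log2 difference was -0.65 (SE 0.20), with -0.69 (SE 0.23) in title number 1 and -0.54 (SE 0.18) in title number 2.

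Efna5 encodes ephrin-A5, a ligand best known from the mapping of retinal axons. In LFLS its level ran from 5.00 CPM through a median of 8.59 to 10.4 CPM, and in HFHS from 8.11 CPM through a median of 10.7 to 12.0 CPM. The diets overlapped, with a log2 difference of 0.35 (SE 0.15). The table lists a second identifier under the same symbol, with counts 39.3% to 60.1% of those of the first in LFLS and 53.0% to 61.4% in HFHS. It had a log2 difference of 0.45 (SE 0.19), and as the identifier was not in the annotation used here, reads may be split between the 2 entries. Among the members that passed the filter, Efna5 and Efnb2 were those whose pooled difference lay above 0, the opposite side from Efna1 and Efna3.

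Efna2 and Efna4, the remaining lipid-anchored ligands, did not pass the filter. Efna2 had 2 to 7 counts per LFLS library and 2 to 10 per HFHS library. Efna4 had 1 to 8 counts per library in both diets, and the lowest value in the table is 1. In the fit with no filter, the log2 difference between diets was -0.01 (SE 0.40) for Efna2 and 0.35 (SE 0.34) for Efna4, so differences of the size of these errors could not be detected at this depth. By title number in that fit, Efna2 was at a log2 difference of -1.20, lower in number 2 (SE 0.29), with a Benjamini-Hochberg adjusted p of 0.0312 by edgeR, beside 3603 of 26561 genes that passed in either direction. Efna4 also shares 168 exon bases with the antisense gene 4731419I09Rik, which is not in the count table.

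Efnb1 encodes ephrin-B1, a transmembrane ligand. Its level in LFLS ran from 7.98 CPM through a median of 15.1 to 18.8 CPM, and in HFHS from 9.17 CPM through a median of 12.0 to 14.3 CPM. The LFLS libraries fell into 2 ranges by title number, 15.1 to 18.8 CPM in number 1 and 7.98 to 9.76 CPM in number 2, on either side of most HFHS libraries. The HFHS libraries were also apart by title number, at 12.0 to 14.3 CPM in number 1 and 9.17 to 11.0 CPM in number 2. The pooled log2 difference was -0.22 (SE 0.19). It was -0.39 (SE 0.11) within title number 1 and 0.17 (SE 0.13) within title number 2.

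Efnb2 encodes ephrin-B2, the ligand that marks arterial endothelium. Its level in LFLS ran from 1.92 CPM through a median of 3.66 to 4.22 CPM, and in HFHS from 2.85 CPM through a median of 3.83 to 6.75 CPM. The highest value, in HFHS 1, stood well above the next HFHS library at 4.27 CPM. The log2 difference was 0.30 (SE 0.21) with this library and 0.12 without it. Beside it, the summed level of the 9 vascular endothelium markers was 197 CPM in HFHS 1 and 128 to 140 CPM in the other HFHS libraries, and that of the 8 stellate cell markers was 628 CPM in HFHS 1 and 394 to 444 CPM in the others. In LFLS 1 the vascular endothelium sum was 196 CPM and the stellate cell sum 375 CPM, with Efnb2 at 4.22 CPM. The part of these markers in the Efnb2 values was not tested.

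Among the receptors, Epha2 encodes a kinase of epithelial cells that binds ephrin-A1. In LFLS, Epha2 ran from 30.7 CPM through a median of 57.9 to 83.7 CPM, and in HFHS from 35.4 CPM through a median of 50.3 to 63.0 CPM. The HFHS range lay wholly inside the LFLS range, and the log2 difference was -0.23 (SE 0.21). Epha2 and Epha1 together made up nearly all of the EphA class per length, Epha2 51.7% ± 9.65 in LFLS and 49.2% ± 3.20 in HFHS. Epha1 was close to it, and Epha2 exceeded Epha1 in 10 of 14 libraries.

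Ephb4, the receptor that marks venous endothelium and binds ephrin-B2, was the main EphB receptor. It made up 93.9% ± 1.31 of the EphB class per length in LFLS and 89.8% ± 6.70 in HFHS. Its level in LFLS ran from 15.2 CPM through a median of 24.4 to 32.4 CPM, and in HFHS from 17.0 CPM through a median of 19.5 to 29.5 CPM. The HFHS range again lay inside the LFLS range. The log2 difference was -0.13 (SE 0.17), -0.24 without HFHS 1, -0.27 (SE 0.16) within title number 1 and 0.16 (SE 0.11) within title number 2. Ephb3, a receptor known from the intestinal crypt, was scarce, at 0.241 to 0.641 CPM in LFLS and 0.153 to 0.569 CPM in HFHS, with a log2 difference of -0.31 (SE 0.28).

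**Figure D4:**
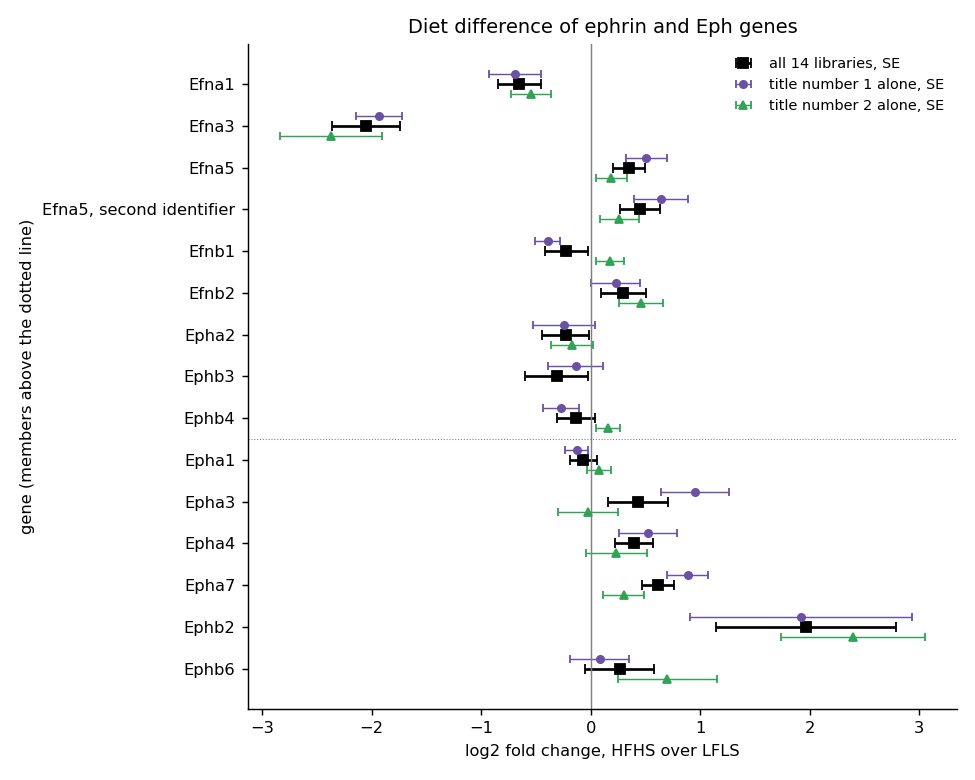
Fitted log2 fold change of HFHS over LFLS with its SE (horizontal axis) for the member identifiers that passed the filter and, below the dotted line, 6 other Eph receptors, from all 14 libraries (black squares), title number 1 alone (purple circles) and title number 2 alone (green triangles). Efna3 lies at -2.06 and Efna1 at -0.65 with the same sign in both title numbers, whereas Efnb1 and Ephb4 lie below 0 in number 1 and above 0 in number 2.

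Of the 9 member identifiers that could be fitted, 1, Efna3, passed a Benjamini-Hochberg adjusted p of 0.05 in the edgeR quasi-likelihood test, and it was lower in HFHS. Over all genes 2.81% passed, and as the rule used this contrast nothing is read from the member count. The median log2 difference was -0.22 over the 9 identifiers, with 6 below 0. Over all tested genes it was -0.01, with 8834 of 17223 below 0. With the title number as a block, 2 of 9 passed, Efna1 and Efna3, beside 8.94% of all genes. For 0 of 9 were the pooled diets apart, beside 1.65% of all genes, and for 2 of 9, Efna1 and Efna3, they were apart in one direction within both title numbers, beside 4.26%. Within title number 1 alone the diets were apart for 4 of 9, beside 22.5% of all genes, and within title number 2 alone for 2 of 8, beside 26.6%.

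Several members differed by title number, a contrast other than the diet comparison in view when the members were chosen. Earlier results of these data were known at that choice, and whether they held the title number is not recorded. With diet in the model, 4 of 9 were lower in title number 2 by edgeR's quasi-likelihood test (adjusted p, Benjamini-Hochberg), beside 14.8% of all genes, and 0 of 9 were higher, beside 13.9%. Efnb1 fell by 0.65 on the log2 scale (SE 0.11, adjusted p 0.00227) and Ephb4 by 0.49 (SE 0.13, adjusted p 0.0128). The arterial ligand Efnb2 fell by 0.54 (SE 0.16, adjusted p 0.0258). Efna3 fell by 0.78 (SE 0.25, adjusted p 0.0296). Efnb1 and Ephb4 also passed without any single library, whereas Efnb2 did not pass without LFLS 5, LFLS 7 or HFHS 7. Efna3 did not pass without LFLS 3, LFLS 6, LFLS 7, HFHS 5 or HFHS 6. The other 5 identifiers did not pass. Among them Ephb3 had -0.69 (adjusted p 0.0521) and Efna1 -0.44 (adjusted p 0.0614). No member passed with edgeR at an adjusted p of 0.05 toward higher levels, and Efna5 had the highest value, 0.27 (adjusted p 0.133), apart from its second identifier at 0.35 (adjusted p 0.129).

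Marker levels and base composition moved with the title number too. The summed level of the vascular endothelium markers had a median of 164 CPM in title number 1 and 119 CPM in number 2. In LFLS it was 161 to 196 CPM in number 1 and 107 to 111 CPM in number 2, beside Efnb1 at 15.1 to 18.8 and 7.98 to 9.76 CPM. In HFHS the sums overlapped, at 133 to 197 CPM in number 1 and 128 to 140 CPM in number 2. Efnb1 did not overlap there, at 12.0 to 14.3 CPM in number 1 and 9.17 to 11.0 CPM in number 2. Kupffer cell markers had medians of 321 CPM in number 1 and 211 CPM in number 2, and hepatocyte markers went the other way, at 89921 and 110580 CPM. Across the 94.9% of tested genes with a known GC content, the title number difference fell with GC content, at an r of -0.53 across genes, which are not independent replicates. With genes in 5 equal bins of GC content, the median log2 difference was 0.32 in bin 1, the lowest, and -0.33 in bin 5, the highest. Efna3, Efnb1, Epha2, Ephb3 and Ephb4 lie in bin 5, Efna1 in bin 4, Efnb2 in bin 3 and Efna5 in bin 2. The diet difference also ran with GC content, at an r of -0.31 across genes, with medians of 0.18 in bin 1 and -0.14 in bin 5. The part of the markers and of base composition in the members' differences was not tested.

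**Figure D5:**
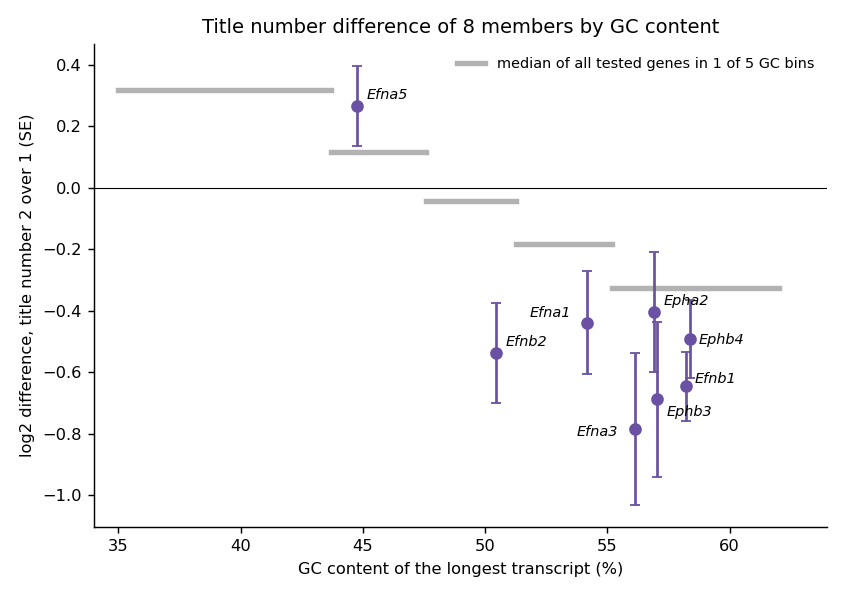
Log2 difference of title number 2 over 1 with its SE (vertical axis) against GC content of the longest transcript in percent (horizontal axis) for 8 members, with grey bars for the median of all tested genes in each of 5 bins of GC content, the outer bins drawn only in part. Efna3, Ephb3, Efnb1, Ephb4 and Epha2 lie at -0.78, -0.69, -0.65, -0.49 and -0.41, below the bar of their bin at -0.33. Efnb2 at -0.54 and Efna1 at -0.44 lie below their bars at -0.04 and -0.18, and Efna5 at 0.27 lies above its bar.

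Whether the diet difference itself depended on the title number was tested with an interaction term. None of the 9 identifiers passed an adjusted p of 0.05 in edgeR's quasi-likelihood test, beside 0.883% of all genes, and 1 of 9 had an unadjusted p under 0.05, beside 22.6% of all genes. DESeq2 called 1 of 9, beside 8.53% of all genes, and limma voom 2 of 9, beside 20.8%. Efnb1 was the closest, with an interaction of 0.58 on the log2 scale (SE 0.16) and a Benjamini-Hochberg adjusted p of 0.0775 by edgeR. For Efna3 the interaction was -0.42 (SE 0.50, adjusted p 0.638 by edgeR) and for Efna1 0.17 (SE 0.34, adjusted p 0.800 by edgeR).

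Of 12 family genes outside the members, 6 passed the filter, all receptors, and 1 of them rose in HFHS, beside 2.81% of all genes called in either direction. These genes are what the members left of the family, and the list was written with earlier results of these data known. Their diet tests are therefore given as a description. Epha7, a receptor known from nervous system development, stood at 1.44 to 2.19 CPM in LFLS with a median of 1.95, and at 2.13 to 3.74 CPM in HFHS with a median of 2.77. Its log2 difference was 0.62 (SE 0.15), with a Benjamini-Hochberg adjusted p of 0.0348 in the edgeR quasi-likelihood test, and the diets overlapped slightly. The difference was 0.88 in title number 1 and 0.30 in number 2, where it did not pass (adjusted p 0.397 by edgeR). Leaving out 1 of LFLS 2, 3 or 4 or HFHS 1, 2, 3, 6 or 7 gave an adjusted p of 0.0515 to 0.0858. At fewer than 4 CPM in every library, Epha7 contributed 0.862% ± 0.291 of the EphA class per length in LFLS and 1.39% ± 0.363 in HFHS.

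The other 5 receptors did not pass between diets. Epha1 had a log2 difference of -0.07 (adjusted p 0.804 by edgeR) and Epha4 of 0.39 (adjusted p 0.226). Epha3 had 0.43 (SE 0.27) and Ephb6 0.26 (SE 0.31). Ephb2, a receptor of ephrin-B ligands, had 1.97 (SE 0.82, adjusted p 0.200), and 0.43 without HFHS 1. That library stood at 21.0 CPM while the other HFHS libraries lay at 0.499 to 2.85 CPM and LFLS at 0.126 to 2.52 CPM. By title number, 3 of the 6 were lower in number 2, beside 14.8% of all genes: Epha1 by -0.38 (adjusted p 0.00631), Ephb2 by -2.11 (adjusted p 0.0482) and Ephb6 by -0.83 (adjusted p 0.0294), all by edgeR with diet in the model. HFHS 1 is a library of title number 1. Without it, Ephb2 in HFHS lay at 0.499 to 2.85 CPM in number 1 and 0.560 to 2.73 CPM in number 2. In LFLS, Ephb2 lay at 1.24 to 2.52 CPM in number 1 and 0.126 to 0.602 CPM in number 2. Efnb3, Epha5, Epha6, Epha8, Epha10 and Ephb1 did not pass the filter.

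Genes that act beside or after the receptors showed no diet difference that passed. The list held proteases that cut ephrins, exchange factors, kinases, adaptors, phosphatases and small GTPases, of which 55 of 56 symbols matched and 54 were tested. This list too was written with earlier results of these data known, so its diet tests are a description. By edgeR 0 of 54 passed an adjusted p of 0.05, beside 2.81% of all genes, and 9 had an unadjusted p under 0.05, beside 19.6%. DESeq2 called 2 of 54, beside 7.30% of all genes, and limma voom 17 of 54, beside 19.0%. The median log2 difference was -0.05, with 30 of 54 below 0, beside 8834 of all 17223 tested genes. Rgs3, a regulator of G protein signalling that ephrin-B can bind, was lowest in p, at 21.0 ± 10.8 CPM in LFLS and 10.2 ± 2.31 CPM in HFHS (SD, n = 7 each), with a log2 difference of -1.05 (SE 0.28, adjusted p 0.0530 by edgeR, and 0.0256 with the title number as a block). The kinase Abl2 had -0.25 (SE 0.08, adjusted p 0.0996) and the adaptor Crkl -0.27 (SE 0.09, adjusted p 0.117). The lipid phosphatase Inppl1, known as SHIP2, had -0.40 (SE 0.14, adjusted p 0.135, and 0.0327 with the block). The third gene past the threshold with the block was the small GTPase gene Rap1a, named after its values were seen, at 0.69 (adjusted p 0.0415 by edgeR with the block, and 0.58 with 0.207 without it).

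Ligands were compared with receptors they can bind, and the clustered ligands with each other, over the 14 libraries. The means of each diet and title number were removed first. None of 6 pairs passed by Pearson's r after Benjamini-Hochberg adjustment of permutation p-values, and 3 passed by Spearman's rho. How often other pairs of genes pass was not tested, and the libraries share depth and composition. Nothing particular to these pairs is therefore read from the count. Efna1 and its receptor Epha2 had an r of 0.55 (permutation p 0.0456, adjusted 0.0911) and a rho of 0.70 (adjusted permutation p 0.0374), with r at 0.51 without the 2 libraries farthest from the Efna1 median. Efnb1 and Ephb3 had an r of 0.70 (permutation p 0.0201, adjusted 0.0603) and a rho of 0.69 (adjusted permutation p 0.0374), with r at 0.63 without 2 libraries. The Ephb3 counts of 3 to 30 per library limit what this holds. Efnb2 and Ephb4 had an r of 0.66 (permutation p 0.0851, adjusted 0.128) and a rho of 0.47 (adjusted permutation p 0.215). That r was 0.36 without HFHS 1 and HFHS 4, 0.24 without HFHS 1 alone and 0.67 without HFHS 4 alone, so it rested on HFHS 1. Between the clustered ligands, Efna1 and Efna4 had an r of -0.59 (permutation p 0.0194, adjusted 0.0603) and a rho of -0.66 (adjusted permutation p 0.0374), with r at -0.37 without 2 libraries, and the Efna4 counts of 1 to 8 limit what this holds. Efna3 and Efna4 had an r of -0.21 (permutation p 0.673, adjusted 0.673) and a rho of -0.33 (adjusted permutation p 0.365), with r at -0.36 without 2 libraries.

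The genes most like the leading ligand and the leading receptor were taken from the same residual levels over 14 libraries. For Efna1 they were Slco2a1 with a Pearson r of 0.908, Tfr2 with 0.906, F7 with 0.903, Scnn1a with 0.896 and Gm16156 with 0.875. Tfr2 is an iron-sensing receptor of hepatocytes and F7 encodes coagulation factor VII, which the liver secretes. Slco2a1, Scnn1a and Gm16156 are not described here, and which cells gave the Efna1 transcripts was not tested. For Epha2 they were Tmem175 with 0.921, Gnat1 with 0.896, Josd2 with 0.892, 4930511M06Rik with 0.868 and Prpf31 with 0.866. These r values are a description, since the libraries share depth and composition.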

How the data were processed

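The members and gene lists were chosen with earlier results of these data known. Per the labels' protocols, total liver RNA was made into TruSeq libraries and read as single reads of 50 bases. Per the submitters' processing notes, CASAVA 1.8, TopHat, Bowtie and DESeq were used with build mm9; the sources used here do not name the counting tool or annotation. In the count table deposited by the authors, counts are whole numbers per Ensembl gene, never below 1, with 18.2 to 52.8 M (mega) per library. The authors' results table holds a ratio (fold change), its log2 and DESeq p-value columns, per the file headers; it gave gene names and the values credited to it.

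The test was that of edgeR 4.0.16 under R 4.3.3 (TMM, default filter, quasi-likelihood F test, Benjamini-Hochberg threshold 0.05), with HFHS against LFLS and no covariate. SE is the log2 difference divided by the square root of F. The title number entered as a block, contrast or interaction in separate fits. Member pairs used log2 CPM with a prior count of 2 and 1e+05 permutations. DESeq2 1.42.0, limma 3.58.1 voom, other scalings and filters, subtraction of 1, pairs of titles, single title numbers and the omission of each library were alternatives; the Gm15998 comparison and the genes like Efna3 were added after values were seen. Scripts were tested on simulated data. All members are named, with tested family genes, the 4 pathway genes of smallest p and the 5 genes most like the top ligand and receptor. GENCODE M21 and RefSeq (GRCm38.p6) gave lengths, overlaps and promoters, not coordinates of the counts.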

Additional observations from a re-analysis of the deposited data

Results flagged for a closer look

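In 3 of 32 groups of 7 libraries, 1 library stood so far from the others that its gap to the nearest took up more than 0.568 of the group's range, the 95% limit of Dixon's test, which chance passes in about 1 group in 20. All 3 values came from HFHS 1. Efnb2, the arterial ligand, stood at 6.75 CPM there, with the next HFHS library at 4.27 CPM. Ephb4, the venous receptor, stood at 29.5 CPM, with the next at 22.0 CPM. Ephb2, a receptor of ephrin-B ligands, stood at 21.0 CPM, with the next at 2.85 CPM. The same library had the highest summed level of stellate cell markers, 628 CPM, and the lowest of hepatocyte markers, 65654 CPM; the part of these in the 3 values was not tested.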

How the results depend on the processing

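The log2 difference of Efna3 lay between -2.37 and -1.92 and that of Efna1 between -0.78 and -0.52 over 26 settings. Members called numbered 1 in the main analysis, 0 in title number 2 alone, 2 with DESeq2 (Efna1 and Efna3), 3 with limma voom, 2 with the title number as a block, and 1 to 2 without single libraries (2 without HFHS 3). Efnb1 and Ephb4 reversed in title number 2 alone, at 0.17 and 0.16. Epha1 reversed there too, at 0.08, and Epha3 at -0.02. Family genes outside the members called fell from 1 to 0 with no filter, with the pairs of titles as a block and in title number 2 alone, and were 0 to 1 without single libraries. Pathway genes called rose from 0 to 2 with DESeq2, 17 with limma voom, 3 with the title number as a block, 1 with the pairs of titles as a block and 8 in title number 1 alone, and were 0 to 1 without single libraries. Members differing by title number rose from 4 to 7 with limma voom and to 7 with library totals alone, and were 2 to 5 without single libraries (2 without LFLS 7). Title number calls over all genes moved too, from 4953 to 5836 with limma voom, 5716 with library totals alone and 2778 without LFLS 7. Interactions numbered 1 with DESeq2, 2 with limma voom and 0 to 1 without single libraries (1 without LFLS 1 or HFHS 1). Over all genes interactions numbered 152 in the main analysis, 652 without LFLS 1 and 966 without HFHS 1. Members with diets apart numbered 4 in title number 1 alone, 2 in title number 2 alone (beside 22.5% and 26.6% of all genes) and 0 to 1 without single libraries (1 without LFLS 6 or LFLS 7). All genes with diets apart numbered 284 in the main analysis, 503 without LFLS 6 and 330 without LFLS 7. Pairs passing by r numbered 3 with diet means alone removed and 0 to 1 without single libraries (1 without LFLS 5, LFLS 7 or HFHS 5). The r of Efna3 with Efna4 ran from -0.57 to 0.17 over these settings. The cause of these changes was not tested.

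Over all genes, diet calls were 484 in the main analysis, 1258 with DESeq2, 3274 with limma voom, 1540 with the title number as a block, 1484 in title number 1 alone, 269 in title number 2 alone, 173 with no filter and 133 to 853 without single libraries (lowest without HFHS 2). Deviations from diet means correlated at 0.129 between libraries of one title number on different diets and at -0.134 between different numbers. The 7 pairs of titles correlated at a mean of 0.161, from -0.07 to 0.41, with 4 of 7 above 0.1; as not every pair was above 0.1 and the labels give no pairing, whether these titles pair the mice was not settled. Depth limits Efna2, Efna4 and Ephb3, and mm9 coordinates were not used here.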
